A study of Homo sapiens with 30 samples.

Results

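Accessible chromatin in VCaP cells kept for 24 hours in 10 nM R1881 was compared with that in VCaP cells kept in vehicle, over 6 of the 30 libraries of the series, chosen by their labels. VCaP is an established human prostate cancer cell line with a TMPRSS2-ERG gene fusion. The 10 nM group held 3 libraries numbered 1, 2 and 4, and the vehicle group, labelled Vehicle_CFS, held 3 libraries with the same numbers. Every group had first spent 48 hours in medium with 8% charcoal-treated serum, which is poor in steroid hormones. Further VCaP groups of 3 libraries each received 0.01, 0.03 or 0.06 nM R1881 and are shown beside the comparison. The labels do not say whether the replicates were separate cultures, so the p-values below measure the spread between these libraries, which may be technical.

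R1881 is a synthetic androgen that acts through a nuclear receptor, a transcription factor switched on by its hormone. The hormone-bound receptor enters the nucleus, pairs with a second receptor molecule on palindromic response elements, most of them in enhancers away from promoters, and works there with pioneer factors such as FOXA1 and HOXB13. In luminal prostate cells this program raises secreted kallikreins and the co-chaperone FKBP5. Omni-ATAC-seq marks open DNA by letting the Tn5 transposase insert sequencing adapters into it, and a peak is a stretch where insertions pile up.

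The authors' lists held 135711, 146955 and 132826 peak entries in 10 nM replicates 1, 2 and 4, against 105034, 117798 and 132806 in vehicle replicates 1, 2 and 4. Each list was shortened to its 104726 strongest entries on chromosomes 1 to 22 and X, the length of the shortest list. This kept 77.4%, 71.5% and 79.1% of those entries in the 10 nM libraries, against 100%, 89.2% and 79.1% in the vehicle libraries. The read number of a library is not in these lists, so depth was judged by the background pileup, the number of fragments expected at a site without a peak. It was 2.49, 2.07 and 2.43 in the 10 nM libraries and 1.14, 1.09 and 2.11 in the vehicle libraries. By this measure vehicle replicates 1 and 2 were the shallow ones. The median summit pileup of the entries kept was 28, 15 and 26 in the 10 nM libraries and 12, 8 and 19 in the vehicle libraries. The weakest entry kept had a −log10 p of 4.0, 3.0 and 3.65 in the 10 nM libraries, against 2.0, 2.28 and 2.81 in the vehicle libraries. Replicate 2 of the 0.01, 0.03 and 0.06 nM groups stood apart, with a peak at 58078, 56640 and 70300 of the regions placed, against 77055 to 92644 in the other low-dose libraries. Spearman's rho of region values was 0.766 to 0.85 within the 10 nM group, 0.722 to 0.784 within vehicle and 0.526 to 0.637 between the groups. Of 12 genes that mark prostate luminal cells, 11 or 12 had, in each of the 6 libraries, a peak at most 1 kb from one of the gene's ends. Of 11 immune markers, 3 had such a peak in each 10 nM library and 2 to 4 in the vehicle libraries, and of 10 basal markers it was 3 in each 10 nM library and 3 to 5 in the vehicle libraries. Of 11 stromal markers it was 2 to 4 in the 10 nM libraries and 3 in each vehicle library, and of 14 neuroendocrine markers 12 or 13 in the 10 nM libraries and 11 to 13 in the vehicle libraries. PTPRC, TP63 and COL1A1, defining genes of immune, basal and stromal cells, had none in any of the 6. Other members of these lists had one in all 6, namely CD14 and SPI1 (immune), DSC3, NGFR and LAMB3 (basal) and LUM and ACTA2 (stromal). Of the luminal genes, KLK3 had one only in 10 nM replicate 2. A peak near a gene end thus did not set luminal markers apart from neuroendocrine ones.

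Opening outnumbered closing. Of the 88594 regions tested, those where 3 or more of the 6 libraries listed a peak, 9374 were higher at 10 nM than in vehicle (10.6%) and 4129 were lower (4.66%), at an adjusted p under 0.05 in limma. A region is a window of 501 bp centred on a summit. Each library gives it a value, the percentile rank of the peak that covers its centre, with 100 for the strongest entry. A peak counts as listed only if it was kept in the shortened list, and the value is 0 where none was. The median difference was 51.9 percentile points at the regions that rose and −44.8 at those that fell, against 0.138 over all regions tested. No peak was listed in any vehicle library at 5756 of the regions that rose (61.4%), and none in any 10 nM library at 1235 of those that fell (29.9%). Over all regions tested the matching numbers were 7093 (8.01%) and 1866 (2.11%). A region without a peak in a whole group was tested only because all 3 libraries of the other group listed one.

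The counts were repeated with other libraries and filters. Leaving out the shallow vehicle replicates 1 and 2 sets vehicle replicate 4 alone against the 10 nM libraries. The counts of that setting therefore cannot tell depth from the smaller group. With vehicle replicates 1 and 2 left out, 2925 regions rose (3.3%) and 469 fell (0.529%), of which 2686 and 386 were the same regions as before. The count of falls was 2436 without vehicle replicate 1, 2744 without 10 nM replicate 1 and 2642 without 10 nM replicate 2. A filter for a peak in all 6 libraries keeps out the rises that no vehicle library listed and the falls that no 10 nM library listed. At the 40623 regions it leaves there were 645 rises (1.59%) and 845 falls (2.08%) by rank, and 1951 rises (4.8%) and 1791 falls (4.41%) by log2 summit pileup. With every peak as deposited, 11863 regions rose (12.3%) and 2777 fell (2.88%), and the median of all differences moved to 3.42 percentile points. Of the rises 9132 of 9374 were called again, and of the falls 2679 of 4129. The part of depth in the excess of rises was not tested.

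**Figure D1:**
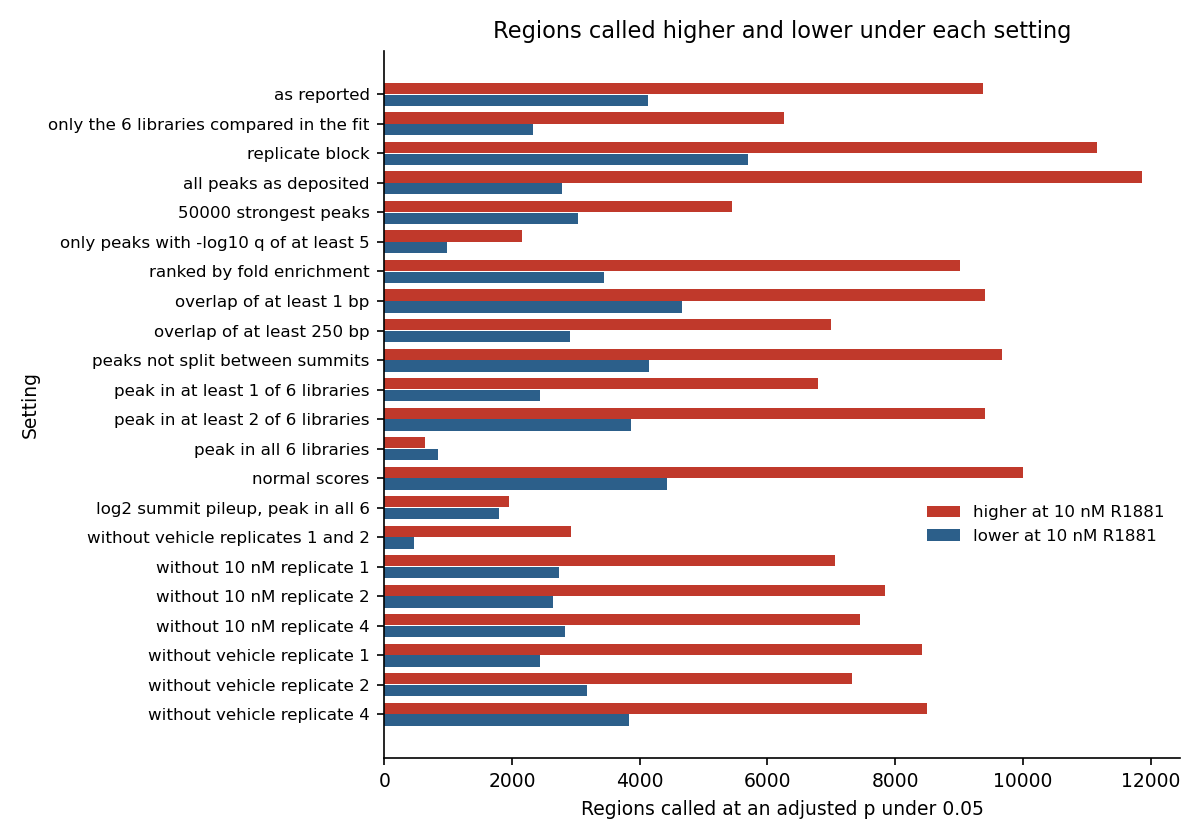
Bars give the number of regions called higher (red) or lower (blue) at 10 nM R1881 than in vehicle for each way of processing, with the setting on the vertical axis and the number of regions on the horizontal axis. Rises outnumber falls in all settings shown but 1, the one restricted to a peak in all 6 libraries, where 645 rises stand beside 845 falls.

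The low doses did not enter the choice of these regions, although their spread entered the fit. At the 9374 regions higher at 10 nM, the median of the group means was 0 in vehicle, 2.63 at 0.01 nM, 10.8 at 0.03 nM, 32.3 at 0.06 nM and 62.7 at 10 nM. At the 4129 lower regions it was 70.1 in vehicle, 59.9 at 0.01 nM, 47.8 at 0.03 nM, 41.9 at 0.06 nM and 11.4 at 10 nM. The low-dose medians lay between those of the end groups, which a choice of regions by far-apart end groups favours by itself. They also kept the order of the doses in both directions, which was not part of the choice. The midpoint between the vehicle and 10 nM means was passed at 0.01 nM by 12.3% of the rises, at 0.03 nM by a further 14.4% and at 0.06 nM by a further 26.0%, and 47.3% passed it only at 10 nM. For the falls the shares were 26.4%, 24.3%, 15.4% and 33.9%. Without replicate 2 of each low dose, 38.3% of the rises and 39.3% of the falls passed it only at 10 nM.

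**Figure D2:**
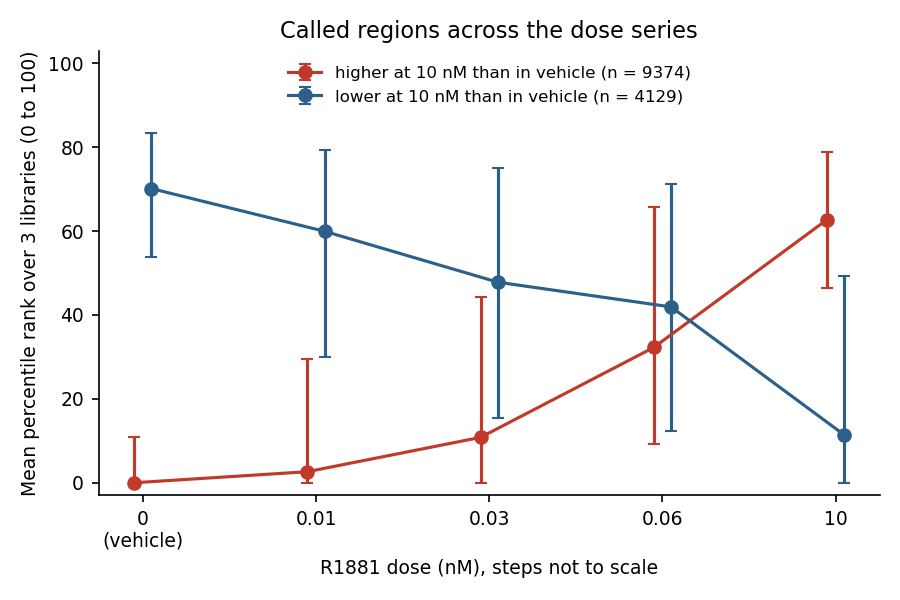
Points are medians over regions of the mean percentile rank of 3 libraries, and bars span the quartiles, with the R1881 dose on the horizontal axis. Regions chosen as higher (red) climb to a median of 62.7 at 10 nM and regions chosen as lower (blue) drop to 11.4, and the doses between lie in order.

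Changed regions were mostly away from gene ends. A gene end, either end of a protein-coding gene body, lay within 1 kb of 3.74% of the rises and 6.44% of the falls, against 20.8% of all regions tested. Of 18429 tested regions so placed, 351 rose (1.9%) and 266 fell (1.44%). The RefSeq promoters used here, each from 250 bases before to 50 bases after a start site, numbered 22131, and 13370 of them were touched by a tested region. A region that rose touched 142 promoters and a region that fell touched 202.

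The 3 largest rises and 3 largest falls over promoters, with at least 200 bp of overlap, are printed to show the sequence under them (RefSeq, GRCh38.p14, 5′ to 3′ along the gene's strand, chosen after their values were seen). Capitals mark matches on either strand to the hormone response half-site AGAACA, to the receptor's palindrome (the half-site, any 3 bases and its reverse complement), to the forkhead motif TGTTTAC or to the ETS motif CCGGAAGT. The palindrome contains the half-site, so a palindrome would count under both.
INPP5F, chr10:119726246-119726545, plus strand: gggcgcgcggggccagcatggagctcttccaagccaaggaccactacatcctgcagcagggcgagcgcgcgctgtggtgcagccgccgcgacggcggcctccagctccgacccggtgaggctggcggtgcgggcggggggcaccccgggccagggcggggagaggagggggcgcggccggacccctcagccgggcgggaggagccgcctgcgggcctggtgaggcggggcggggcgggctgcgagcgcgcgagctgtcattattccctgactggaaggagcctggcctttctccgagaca
SCRG1, chr4:173399067-173399366, minus strand: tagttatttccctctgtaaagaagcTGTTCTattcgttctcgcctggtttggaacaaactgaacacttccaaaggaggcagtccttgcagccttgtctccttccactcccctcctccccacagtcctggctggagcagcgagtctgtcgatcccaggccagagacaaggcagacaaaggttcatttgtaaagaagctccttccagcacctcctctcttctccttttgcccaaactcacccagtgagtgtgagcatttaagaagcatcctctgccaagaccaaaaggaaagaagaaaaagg
RASSF9, chr12:85836360-85836659, minus strand: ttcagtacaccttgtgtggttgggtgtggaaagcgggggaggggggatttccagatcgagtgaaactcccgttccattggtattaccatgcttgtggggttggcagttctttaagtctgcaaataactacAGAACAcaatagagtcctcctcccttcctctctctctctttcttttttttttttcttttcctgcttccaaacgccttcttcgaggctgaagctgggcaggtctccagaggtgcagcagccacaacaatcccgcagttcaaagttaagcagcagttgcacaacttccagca
ADD3, chr10:109996123-109996422, plus strand: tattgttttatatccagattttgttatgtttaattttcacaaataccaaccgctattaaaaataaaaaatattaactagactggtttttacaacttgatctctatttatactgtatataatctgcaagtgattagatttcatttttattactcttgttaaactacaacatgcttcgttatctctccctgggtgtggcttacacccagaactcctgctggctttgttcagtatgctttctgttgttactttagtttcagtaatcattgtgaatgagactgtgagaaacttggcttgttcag
LRRC31, chr3:169869886-169870185, minus strand: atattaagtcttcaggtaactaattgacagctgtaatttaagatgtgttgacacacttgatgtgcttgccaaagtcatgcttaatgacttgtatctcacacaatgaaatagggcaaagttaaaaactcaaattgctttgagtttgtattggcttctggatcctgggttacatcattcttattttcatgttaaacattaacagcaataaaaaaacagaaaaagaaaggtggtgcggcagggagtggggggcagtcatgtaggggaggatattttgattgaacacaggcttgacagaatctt
SLC17A4, chr6:25754449-25754748, plus strand: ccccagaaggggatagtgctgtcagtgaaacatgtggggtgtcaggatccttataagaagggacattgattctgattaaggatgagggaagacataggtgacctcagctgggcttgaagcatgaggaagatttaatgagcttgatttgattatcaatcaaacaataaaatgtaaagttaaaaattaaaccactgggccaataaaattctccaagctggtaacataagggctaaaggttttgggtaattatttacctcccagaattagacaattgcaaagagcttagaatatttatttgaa

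The region over the INPP5F promoter, a gene for a phosphoinositide phosphatase, had ranks of 89.5, 92.7 and 92.9 at 10 nM, against 0.844, 0 and 0 in vehicle. All 3 of the 10 nM libraries were far above all vehicle libraries (difference 91.4 percentile points, SE 6.49, adjusted p = 2.19e-06), also without vehicle replicates 1 and 2 (adjusted p = 1.24e-05). Its means at 0.01, 0.03 and 0.06 nM were 89.2, 84.7 and 92.5, so that it was at its 10 nM level from the lowest dose. The printed promoters were chosen without the condition that an overlap of 1 bp also calls the region. INPP5F is absent from the largest rises near gene ends named below, which had that condition. A vehicle peak that touches the window but misses its centre also leaves a value of 0. The promoters of SCRG1 and RASSF9 were at 0 in all vehicle libraries and at 74.1 to 85.9 and 72.9 to 79.9 in the 10 nM libraries (adjusted p = 0.00136 and 0.000516). Each holds 1 half-site. Among the falls, the ADD3 promoter, at the gene for the membrane-skeleton protein gamma-adducin, had 10.1, 0 and 0 at 10 nM, against 84.6, 73.6 and 76.8 in vehicle (adjusted p = 0.00296). LRRC31 was at 0 in the 10 nM libraries and at 42.5 to 72.0 in vehicle, and SLC17A4, a gene for a phosphate transporter family member, at 0 to 11.8 against 48.8 to 72.8 (adjusted p = 0.0258 and 0.00823). Without vehicle replicates 1 and 2 the adjusted p was 0.0602 for SCRG1, 0.034 for RASSF9, 0.086 for ADD3, 0.402 for LRRC31 and 0.221 for SLC17A4. The palindrome was found in none of the 22131 promoters in these exact letters. The half-site was in 23 of the 142 promoters touched by a rise (16.2%) and in 13 of the 202 touched by a fall (6.44%), against 7.73% of the promoters touched by any tested region and 11.7% of all promoters. The ETS letters were in 2.11% and 9.41%, against 8.27% of those touched and 5.34% of all, and the forkhead letters in 3.52% and 5.45%, against 2.24% and 2.85%. For the falls, the half-site and ETS shares were near those of all touched promoters. A match is a description of the letters and not of binding.

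FKBP5, the gene for a co-chaperone of steroid receptors and a standard androgen-induced gene, had a larger share of its regions opened than any other gene with 21 or more tested. Of its 21 tested regions 13 rose and 0 fell, and all 13 were at 0 in all 3 vehicle libraries. Such regions could be tested only because all 3 of the 10 nM libraries listed a peak there. Of all 16755 genes with a tested region, 4689 had at least 1 rise (28.0%), 2458 had at least 1 fall (14.7%) and 691 had at least 3 rises (4.12%). The strongest site, at chr6:35722369-35722869 inside the gene, had ranks of 86.7, 93.7 and 90.8 at 10 nM, against 0, 0 and 0 in vehicle. The groups did not overlap (difference 90.4, adjusted p = 0.000992), and the means at 0.01, 0.03 and 0.06 nM were 0.146, 38.6 and 72.9. It was the one FKBP5 site that the low doses had opened in large part. At the other 12 rises the 0.06 nM mean was 26.4 or less.

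Beyond the lower-coordinate end of FKBP5, 5 of the rises lay in a stretch of 2.95 kb at chr6:35566367-35569317. The middle one, at chr6:35567591-35568091, had 51.1, 63.6 and 71.2 at 10 nM, against 0, 0 and 0 in vehicle (adjusted p = 0.000205), and the one at chr6:35568817-35569317 had 59.2, 43.6 and 70.3, against 0, 0 and 0 (adjusted p = 0.00454). The other 3 of the stretch had 16.3 to 41.7 in the 10 nM libraries. Inside the gene, a pair of windows at chr6:35590108-35591168 shared 1 peak in 10 nM replicates 1 and 4, and a pair at chr6:35623214-35624296 shared 1 in replicate 2, so each 10 nM library listed 12 peaks for the 13 regions. The window at chr6:35590668-35591168 had 55.3, 53.3 and 48.6 at 10 nM, against 0, 0 and 0 in vehicle (adjusted p = 0.000159). By contrast, 3 tested regions close to the higher-coordinate end of the gene, where peaks were listed in all 6 libraries, did not pass the test: the one at chr6:35726702-35727202 had 69.4, 69.7 and 75.6 at 10 nM, against 73.9, 73.4 and 74.7 in vehicle. Leaving out any 1 library left 12 or 13 FKBP5 rises, the fit to the 6 libraries alone 8, and leaving out vehicle replicates 1 and 2 left 6. Ranks by fold enrichment gave 7 rises and 2 falls, and the 50000 strongest peaks of each list, or peaks with a −log10 q of at least 5, gave 1 rise. FKBP5 falls numbered 2 without 10 nM replicate 4, 1 without vehicle replicate 2 and 1 with an overlap of at least 1 bp. No FKBP5 rise had a peak in all 6 libraries.

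**Figure D3:**
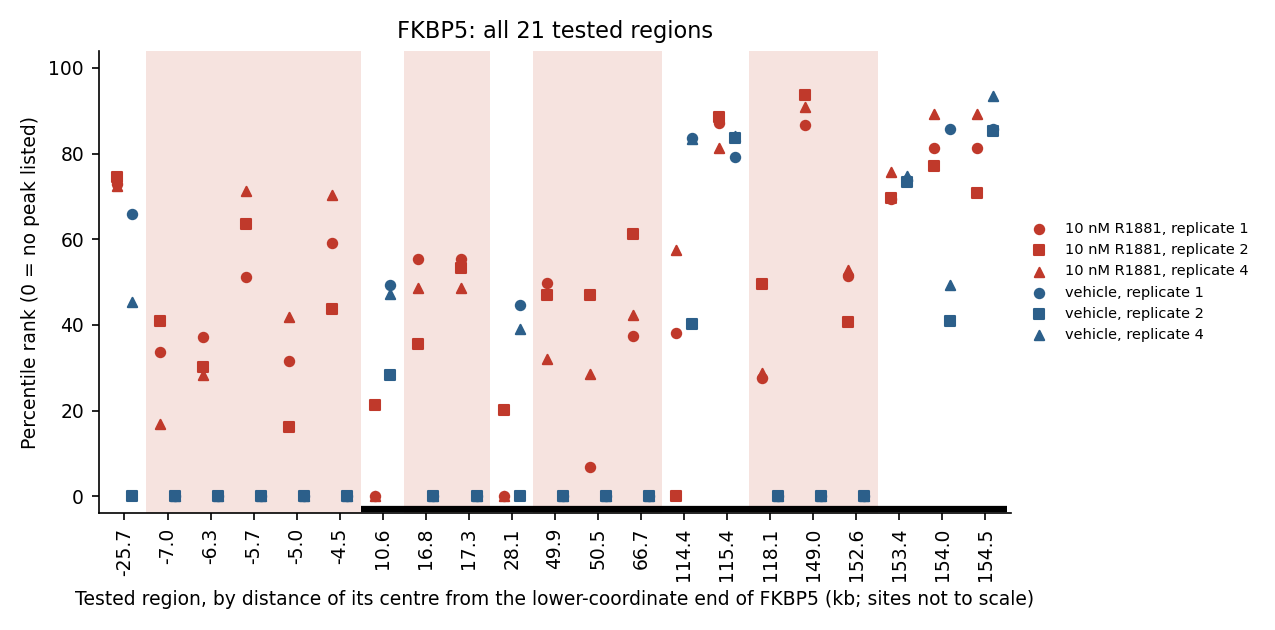
All 21 tested FKBP5 regions in order along the chromosome, labelled by distance in kb from the lower-coordinate end of the gene, with the percentile rank in each 10 nM (red) and vehicle (blue) library on the vertical axis. Shaded regions are the 13 that rose, with all vehicle points at 0, and the black bar marks regions inside the gene body.

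Over the list of 59 androgen-induced genes, 55 had a tested region, 38 had a rise and 16 had a fall. Of their 525 regions 90 rose (17.1%) and 21 fell (4%), against 10.6% and 4.66% of all regions, and the median difference was 3.37 percentile points, against 0.138 over all. FKBP5 gave 13 of the 90 rises. The list holds well-known targets of the receptor, so its direction here is not independent evidence.

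KLK3 encodes prostate-specific antigen. Its upstream region at chr19:50851522-50852022, 3.14 kb from the gene, had 76.2, 80.6 and 62.3 at 10 nM, against 0, 0 and 0 in vehicle. The groups were apart (difference 73.0, SE 8.81, adjusted p = 0.000108), and the low-dose means were 3.84, 0 and 1.6. The neighbouring region at chr19:50850747-50851247 had a strong peak throughout, with 91.4, 94.4 and 96.1 at 10 nM, against 94.2, 89.1 and 95.8 in vehicle (adjusted p = 0.892).

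KLK2, a second secreted kallikrein, had 3 rises among 8 tested regions. One at chr19:50879051-50879551 inside the gene had 96.9, 63.0 and 76.7 at 10 nM, against 0, 0 and 0 in vehicle (adjusted p = 0.036), with 61.9, 54.7 and 70.9 as the means of 0.01, 0.03 and 0.06 nM. The strong region at chr19:50880006-50880506 had 96.9, 98.3 and 97.1, against 91.7, 88.3 and 89.6 (difference 7.58, adjusted p = 0.00219), and changed sign when peaks were ranked by fold enrichment (−12.6, adjusted p = 0.705). The number of KLK2 rises was 1 without 10 nM replicate 2 or 4 or vehicle replicate 2 or 4, and 2 without either replicate 1.

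TMPRSS2 encodes a membrane serine protease, and its androgen-driven promoter drives ERG in VCaP. Of 24 tested regions 5 rose and 2 fell. The highest of the rises was at chr21:41490612-41491112 inside the gene, with 67.1, 58.6 and 78.7 at 10 nM, against 0, 0 and 0 in vehicle (adjusted p = 0.00367). A distant one at chr21:41580207-41580707, 72.3 kb outside the gene, had 61.7, 66.8 and 53.1, against 0, 0 and 0 (adjusted p = 0.000653). The region at the gene's end, chr21:41507922-41508422, was open in both groups, with 90.5, 90.8 and 95.6 at 10 nM, against 86.9, 81.4 and 90.7 in vehicle (adjusted p = 0.116). Both TMPRSS2 falls, −13.2 at chr21:41500815-41501315 and −34.7 at chr21:41506936-41507436 changed sign in 1 setting each, to 16.3 (adjusted p = 0.672) with an overlap of at least 250 bp and to 4.48 (adjusted p = 0.162) with peaks not split between summits.

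Single regions of several induced genes rose strongly. At PTGER4, which encodes a prostaglandin E2 receptor, a region 29.9 kb away had 96.7, 97.5 and 90.6 at 10 nM, against 0, 5.22 and 0 in vehicle (adjusted p = 0.000143). At VCL, the gene for the adhesion protein vinculin, a region inside the gene had 62.5, 80.0 and 82.8, against 0, 0 and 0 (adjusted p = 0.000169). HPGD, which encodes the enzyme that inactivates prostaglandins, had 72.0, 56.1 and 67.7, against 0, 0 and 0 (adjusted p = 9.86e-05), and its means at all 3 low doses were 0. A group at 0 in every library adds no spread to the fit, so a small p at such a site rests partly on the floor of 0. HPGD also had 2 falls, the only other calls among its 4 tested regions. Separate groups were a condition for choosing these sites. At TPD52, a gene overexpressed in prostate cancer, and at LIFR, the receptor of leukemia inhibitory factor, the site was already listed in vehicle. TPD52 had 98.1, 98.1 and 98.2 at 10 nM, against 72.2, 77.2 and 75.9 in vehicle (difference 23.05, SE 2.4, adjusted p = 7.1e-05). LIFR had 92.9, 88.4 and 91.3, against 47.0, 35.0 and 49.1 (difference 47.2, adjusted p = 0.000152). Over all their tested regions TPD52 had 3 rises and 1 fall among 21, and LIFR had 5 rises and 1 fall among 20. The calls at these 5 named sites held with any 1 library left out and without vehicle replicates 1 and 2.

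At 2 induced genes the site of smallest p was lower at 10 nM than in vehicle, although rises outnumbered falls over their tested regions, with 4 and 2 among 22 at NDRG1 and 4 and 3 among 8 at NCAPD3. NDRG1, a stress- and differentiation-linked gene, had 64.6, 69.3 and 68.9 at chr8:133260593-133261093 inside the gene at 10 nM, against 99.2, 98.0 and 96.8 in vehicle. The spread within either group was small beside the difference of −30.4 percentile points (SE 2.33, adjusted p = 4.6e-06), and the low-dose means of 95.5, 95.4 and 85.3 stayed near vehicle. NCAPD3, a condensin subunit gene, had 43.9, 61.9 and 60.9 at chr11:134224138-134224638, 1.07 kb inside its end, against 98.6, 94.5 and 94.3 (difference −40.2, adjusted p = 6.82e-05). Under an overlap of at least 250 bp the NCAPD3 value turned to 22.7 (adjusted p = 0.752) and the cause was not tested.

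**Figure D4:**
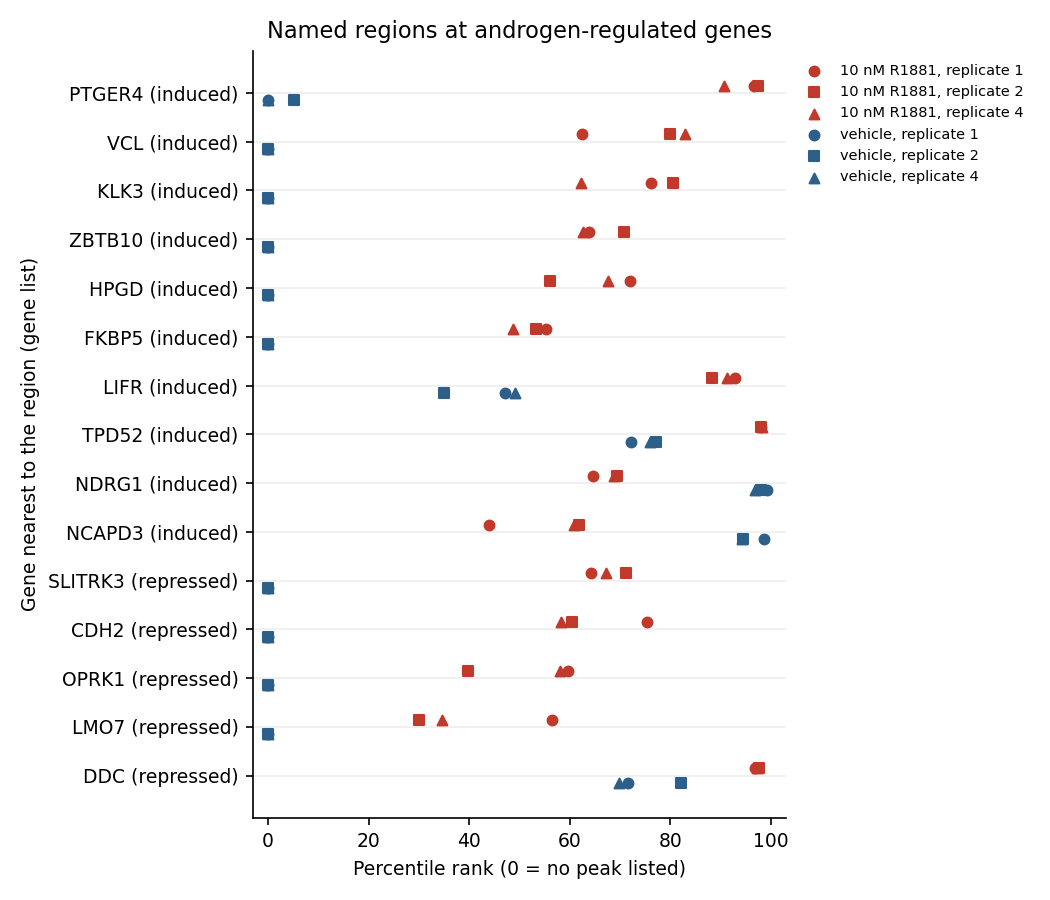
Percentile rank in each library, 10 nM in red above and vehicle in blue below on every line, at the named regions shown of androgen-induced and androgen-repressed genes. VCL, KLK3, HPGD and CDH2 are among the sites at 0 in all vehicle libraries, while the 10 nM points of NDRG1 and NCAPD3 lie to the left of the vehicle points.

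Of 27 androgen-repressed genes 26 were measured, 17 with a rise and 10 with a fall. Of their 279 regions 29 rose (10.4%) and 18 fell (6.45%), shares near those of all regions. One site of DDC, the gene of the enzyme that makes dopamine and serotonin, had 96.8, 97.6 and 97.1 at 10 nM, against 71.6, 82.2 and 69.8 in vehicle (difference 22.6, adjusted p = 0.000131), while DDC had 3 rises and 3 falls in all among 11 tested regions. A site of CDH2, which encodes N-cadherin, had 75.4, 60.5 and 58.3, against 0, 0 and 0 (adjusted p = 0.000108), with 4 rises and 1 fall among 17 regions of that gene. A site of SLITRK3, a neuronal membrane protein gene, had 64.3, 71.2 and 67.2, against 0, 0 and 0 (adjusted p = 0.000114). These sites of genes listed as repressed were higher at 10 nM than in vehicle.

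ERG, the ETS factor placed under androgen control by the fusion, had 6 rises and 1 fall among 43 regions, and the rises were close to the threshold. The one of smallest p, 6.5 kb outside the gene, had 83.9, 83.0 and 84.4 at 10 nM, against 44.5, 0 and 23.7 in vehicle (adjusted p = 0.0167). With any 1 library left out 1 or 2 ERG rises were called, and 0 without vehicle replicates 1 and 2. Over 14 ETS genes, 7 had a rise and 7 had a fall, and of their 175 regions 13.1% rose and 5.14% fell, against 10.6% and 4.66% of all regions. A region 70.4 kb from ETS1 had 0, 0 and 0 at 10 nM, against 86.4, 86.4 and 76.1 in vehicle (adjusted p = 0.000275), while 4 other ETS1 regions rose and 1 other fell. A region 8.79 kb from ETV5 had 91.6, 85.3 and 90.5, against 51.0, 56.9 and 61.4 (adjusted p = 0.000486). Among 22 known ERG targets 7 had a rise and 9 a fall, and of their 142 regions 9.15% rose and 7.75% fell. The largest of those named was inside CACNA1D, a calcium channel gene, with 89.8, 89.1 and 86.9 at 10 nM, against 0, 0 and 0 in vehicle (adjusted p = 0.000312). CACNA1D had 4 rises and 1 fall in all.

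MYC, the growth-promoting transcription factor gene, lost a site next to its end. The region at chr8:127742874-127743374, 0.173 kb outside the gene, had 0, 0 and 0 at 10 nM, against 86.3, 77.4 and 80.2 in vehicle (difference −81.3, SE 15.5, adjusted p = 0.00187). Its means at 0.01, 0.03 and 0.06 nM were 80.9, 64.8 and 46.9, in the order of the doses. The region at chr8:127735713-127736213 just inside the other end had 73.1, 53.4 and 53.5, against 82.0, 87.1 and 83.1 (adjusted p = 0.0111), and its sign was not kept under an overlap of at least 250 bp. Neither was called without vehicle replicates 1 and 2. Of 17 MYC regions 2 fell and 2 rose.

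Of 45 genes of the cell cycle and DNA replication 7 had a rise and 5 a fall (28.0% and 14.7% of all genes with a tested region did), and 10 of their 144 regions rose (6.94%) while 5 fell (3.47%), against 10.6% and 4.66% of all regions. These genes had about 3 tested regions each. BIRC5, the gene of the mitotic protein survivin, had 85.2, 81.2 and 74.9 at 10 nM, against 20.4, 0 and 0 in vehicle (adjusted p = 0.000865). MELK, a mitotic kinase gene, is not on this list and was named for its fall near a gene end. Next to it, a region 0.186 kb from the gene end had 0, 0 and 0, against 81.4, 76.3 and 68.6 (adjusted p = 0.00718). Among 23 cell cycle inhibitors 9 had a rise and 6 a fall, and of their 143 regions 11.9% rose and 5.59% fell. A site 15.3 kb from GADD45G, a growth-arrest gene, had 89.9, 87.2 and 88.9 at 10 nM, against 0, 0 and 0 in vehicle (adjusted p = 0.0003), while one 7.18 kb from BTG2, an antiproliferative gene, had 73.2, 83.7 and 81.9, against 97.6, 98.5 and 97.3 (difference −18.2, SE 2.24, adjusted p = 0.000116). BTG2 had 3 rises and 2 falls in all.

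The other transcription factor genes had calls in both directions, as had all regions, of which 10.6% rose and 4.66% fell. Of all genes with a tested region 28.0% had a rise and 14.7% a fall. Of 34 luminal and pioneer factor genes 16 had a rise and 12 a fall. Among their 349 regions 34 rose (9.74%) and 18 fell (5.16%), shares near those of all regions. A site 62.7 kb from GATA3, a luminal lineage factor, had 90.7, 89.3 and 92.2 at 10 nM, against 0, 0 and 0 in vehicle (adjusted p = 0.000222), and its means at 0.03 and 0.06 nM were 54.6 and 83.3. A site 58.3 kb from GRHL2, an epithelial factor and receptor coregulator, had 79.4, 72.3 and 64.2, against 0, 0 and 0 (adjusted p = 8.39e-05), with 0 at all 3 low doses, and GRHL2 had 5 rises and 2 falls in all. Of 31 nuclear receptor genes 14 had a rise and 15 a fall, and 32 of their 348 regions fell (9.2%), against 4.66% of all. NR5A2, an orphan receptor gene with 3 rises, gave 5 of these falls, and 3 without 10 nM replicate 1 or 4 or vehicle replicate 1 or 2. The one of smallest p, inside the gene, had 68.5, 73.5 and 64.1 at 10 nM, against 97.0, 92.0 and 94.3 in vehicle (adjusted p = 0.000288). ESR2, which encodes estrogen receptor beta, had 68.8, 65.4 and 66.4 inside the gene, against 0, 0 and 0 (adjusted p = 0.000232). Among 24 coregulators 11 had a rise and 7 a fall, and of their 235 regions 9.36% rose and 5.53% fell, again near all regions. The coactivator gene NCOA2 had 3 rises and 3 falls, and its site of smallest p had 80.1, 68.9 and 70.8, against 0, 0 and 0 (adjusted p = 8.12e-05).

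Of 33 genes of lipid and sterol synthesis 15 had a rise and 8 a fall, and of their 253 regions 11.9% rose and 3.56% fell, near the 10.6% and 4.66% of all regions. PLIN2, a lipid droplet protein gene, had 74.0, 66.3 and 79.4 inside the gene at 10 nM, against 0, 0 and 0 in vehicle (adjusted p = 0.000159). SOAT1, the gene of a cholesterol-esterifying enzyme, lost a site 29 kb away, with 0, 0 and 0, against 92.1, 79.8 and 85.7 (difference −85.9, adjusted p = 0.000395), and the means of 0.01, 0.03 and 0.06 nM were 75.8, 56.2 and 35.9. SOAT1 also had 2 rises. Of 21 genes of glycolysis and mitochondria 10 had a rise and 5 a fall, and of their 156 regions 12.2% rose and 5.13% fell. The 2 PGC-1 coactivator genes had their sites of smallest p in opposite directions. A region inside PPARGC1A had 0, 0 and 0 at 10 nM, against 81.1, 89.6 and 63.9 in vehicle (adjusted p = 0.00046), and a region inside PPARGC1B had 88.2, 87.1 and 90.6, against 0, 0 and 0 (adjusted p = 0.000446). The PPARGC1A call was lost without vehicle replicates 1 and 2, and that gene had 4 rises and 2 falls in all. A site 73 kb from SLC2A1, the glucose transporter gene, had 65.2, 52.8 and 85.2, against 0, 0 and 0 (adjusted p = 0.000282).

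Of 24 genes of androgen synthesis and inactivation 7 had a rise and 3 a fall, and of their 95 regions 10.5% rose, against 10.6% of all, and 3.16% fell, against 4.66%. UGT2B28, of the family that glucuronidates androgens, had 89.5, 88.4 and 91.6 at 10 nM in a region 26.4 kb away, against 64.4, 63.6 and 68.3 in vehicle (difference 24.4, SE 3.1, adjusted p = 0.000143). SRD5A1, which encodes a steroid 5-alpha-reductase, had 84.8, 84.5 and 85.7 inside the gene, against 0, 0 and 0 (adjusted p = 0.00104), and the other of its 2 tested regions fell. Of 17 genes of the unfolded protein response 5 had a rise and 5 a fall, and of their 92 regions 6.52% rose and 7.61% fell. One of the falls was 45.4 kb from EDEM1, a gene of the endoplasmic reticulum's degradation pathway, with 0, 0 and 0, against 84.0, 76.3 and 78.2 (adjusted p = 0.00143). Of 11 polyamine genes 2 had a rise and 2 a fall, with 2 rises and 2 falls among 64 regions (3.125% each).

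Lists for other cell types and for housekeeping were not free of calls. Of 14 neuroendocrine genes 4 had a rise and 4 a fall, of 8 basal genes 3 and 1, of 9 stromal genes 2 and 2, of 5 immune genes 0 and 0, and of 19 housekeeping genes 4 and 2. Their regions rose in 8.96%, 13.6%, 12.5%, 0% and 6.25% of 67, 22, 40, 15 and 80 cases, against 10.6% of all regions tested. Of all genes with a tested region 28.0% had a rise and 14.7% a fall. A site 26.9 kb from GUSB, a lysosomal enzyme gene used as a housekeeping control, had 74.4, 78.6 and 74.3 at 10 nM, against 0, 0 and 0 in vehicle (adjusted p = 8.39e-05). The assignment is to the nearest gene, so a called site does not show that this gene is regulated from it.

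Genes with several changed sites were counted next. At least 3 rises were found at 691 genes (4.12%) and at least 3 falls at 171 (1.02%), and 77 genes had both. The median number of tested regions was 15 in the genes with 3 or more rises and 21 in those with 3 or more falls, against 3 over all genes, so such genes are largely those with many regions. Without 10 nM replicate 1 the genes with 3 or more rises numbered 427 and without vehicle replicate 2 they numbered 453. For 3 or more falls every library left out took the count of 171 down by more than 1.5 times, except vehicle replicate 4, to between 63 and 106. Without vehicle replicates 1 and 2 the counts were 75 and 0.

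The gene with most rises was FHIT with 14 of 42 tested regions, followed by FKBP5 with 13 of 21, PDE4D with 13 of 71 and MYO16 with 11 of 44. FHIT is a very long gene at a common fragile site, and PDE4D encodes a cyclic AMP phosphodiesterase. All rises of FHIT, PDE4D and MYO16 were without overlap between the groups, as were 9307 of all 9374 rises (99.3%). The medians of the differences were 55.9 at FHIT, 57.7 at PDE4D and 36.5 at MYO16. The strongest PDE4D site, chr5:60196349-60196849, had 86.3, 80.7 and 87.3 at 10 nM, against 0, 0 and 0 in vehicle (adjusted p = 0.000158), and a mean of 50.5 at 0.06 nM. The strongest FHIT site, chr3:61232617-61233117, had 70.03, 89.0 and 59.9, against 0, 0 and 0 (adjusted p = 0.000709). FHIT had 9 rises without 10 nM replicate 4 or vehicle replicate 2 and 1 without vehicle replicates 1 and 2. PDE4D had 5 and MYO16 had 7 without vehicle replicates 1 and 2. By share of tested regions, among genes with at least 8 tested and 4 risen, AFG2A led with 6 of 8, followed by FKBP5 with 13 of 21 and by MYOF and PREP with 6 of 10 each. The AFG2A site at chr4:123121398-123121898 had 61.8, 67.4 and 65.4 at 10 nM, against 0, 0 and 0 in vehicle (adjusted p = 9.87e-05).

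MYO16, a gene of an unconventional myosin, combined 11 rises with 9 falls. Inside it, chr13:108948193-108948693 had 99.96, 99.97 and 99.94 at 10 nM, against 92.5, 88.0 and 90.4 in vehicle (adjusted p = 0.000108), and chr13:108823809-108824309 had 0, 0 and 0, against 56.5, 61.4 and 51.7 (adjusted p = 0.00236). The falls of MYO16 numbered 4 without any one 10 nM library, 5 without vehicle replicate 2 and 0 without vehicle replicates 1 and 2. Further genes with 6 falls each were NDUFAF6, ARHGAP42, SH3RF1 and COBL, of 23, 24, 35 and 41 tested regions. In COBL, an actin-nucleating protein gene, the site at chr7:51101111-51101611 had 22.3, 4.3 and 0 at 10 nM, against 97.7, 95.5 and 87.7 in vehicle (difference −84.8, SE 8.92, adjusted p = 7.1e-05). This call was kept in every setting that tested it, and COBL also had 5 rises. By share, among genes with at least 8 tested and 4 fallen regions, MICU2 (4 of 8), BTG4 and HMHB1 (4 of 9 each) and IGFBP7 (4 of 11) led the falls. At MICU2, whose protein gates the mitochondrial calcium uniporter, chr13:21588796-21589296 had 0, 0 and 0, against 73.4, 76.3 and 47.3 (adjusted p = 0.0146). Single libraries moved several of these counts: ARHGAP42 had 3 falls without 10 nM replicate 1 or vehicle replicate 2, SH3RF1 1 without 10 nM replicate 4, 2 without 10 nM replicate 1 and 3 without vehicle replicate 2. BTG4 had 2 without 10 nM replicate 2 or vehicle replicate 1 or 4, and IGFBP7 had 1 without 10 nM replicate 4 and 2 without 10 nM replicate 1 or 2 or vehicle replicate 2. MICU2, BTG4, HMHB1 and IGFBP7 had no called fall without vehicle replicates 1 and 2.

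**Figure D5:**
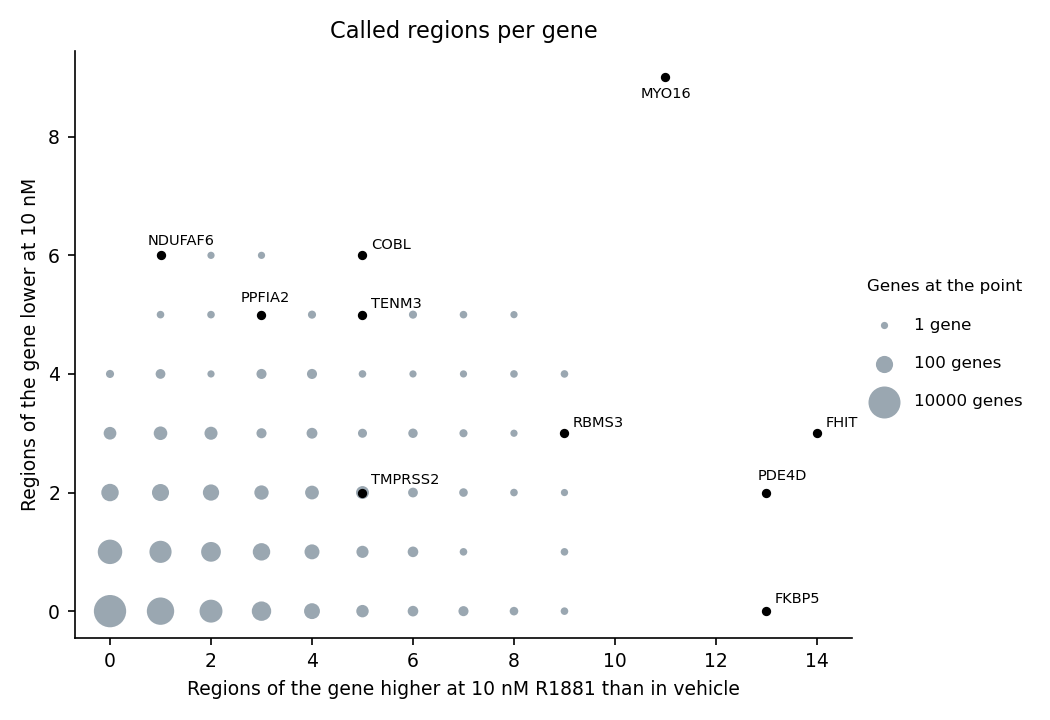
Each point is a pair of counts, the regions of a gene that rose (horizontal) and fell (vertical) at 10 nM R1881 against vehicle, with an area that grows with the number of genes there. FKBP5 lies on the horizontal axis with 13 rises and 0 falls, while MYO16 stands at 11 rises and 9 falls.

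Close runs of changes, with gaps of at most 20 kb between called regions, gave 133 loci of 3 or more rises and 19 of 3 or more falls. Leaving out a 10 nM library gave 61 and 7 (replicate 1), 83 and 8 (replicate 2) or 72 and 7 (replicate 4), and leaving out vehicle replicate 2 gave 71 and 9. They were 11 for the falls without vehicle replicate 1, and 5 and 0 without vehicle replicates 1 and 2. After the FKBP5 stretch, a locus of 5 rises spanned 44.6 kb around CLDN8, a claudin gene, at chr21:30199964-30244601. Its region at chr21:30223719-30224219 had 59.1, 72.1 and 70.5 at 10 nM, against 0, 0 and 0 in vehicle (adjusted p = 9.26e-05), with 0 at all 3 low doses. GPAT4, the gene of a glycerol-phosphate acyltransferase, had 4 rises over 19.9 kb inside the gene, and chr8:41610019-41610519 had 89.7, 87.6 and 90.05, against 28.6, 52.1 and 53.3 (adjusted p = 0.00102). The longest run, 6 rises over 47.9 kb at ACSL3, a fatty acid activating enzyme gene, consisted of weak peaks, from 7.51 to 62.6 at 10 nM and 0 in all vehicle libraries, and none of the 6 was called in the fit to the 6 libraries alone.

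Among the runs of falls, NSMCE2, a gene of the SMC5/6 complex, had 4 over 18.9 kb at chr8:125273115-125291973. The first, chr8:125273115-125273615, had 78.5, 76.0 and 73.9 at 10 nM, against 98.9, 95.1 and 94.5 in vehicle (difference −20.1, SE 2.17, adjusted p = 8.12e-05). Its neighbour lay under the same peak in vehicle replicate 1, so the 4 regions held 3 or 4 peaks in the vehicle libraries. All 4 falls at NSMCE2 were also called in the fit to the 6 libraries alone. A run of 3 at RIMBP2, a synaptic protein gene, included 1 over a start site, chr12:130633694-130634194, with 81.1, 76.4 and 77.6, against 94.4, 94.5 and 89.9 (adjusted p = 0.00397).

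Among called regions without overlap between the groups, the largest rise was inside PLAAT3, a phospholipase gene, at chr11:63583215-63583715, with 99.5, 98.6 and 99.4 at 10 nM, against 0, 0 and 0 in vehicle (difference 99.2, SE 16.4, adjusted p = 0.000704). It was at 0 at 0.01 and 0.03 nM, with a mean of 45.9 at 0.06 nM. CHL1, a neural adhesion gene, had 98.0, 96.5 and 94.5 at a site 13 kb away, against 0, 0 and 0 (adjusted p = 0.000168), and there the low-dose means were 39.5, 84.9 and 87.8. Sites of equal height at 10 nM thus differed in how much of it the low doses reached. The largest fall of that kind was inside SND1, at chr7:127954397-127954897, with 0.0358, 0 and 0 at 10 nM, against 92.5, 92.9 and 81.4 in vehicle (difference −88.9, adjusted p = 8.39e-05), followed by a site 2.7 kb from KCNQ3, a potassium channel gene, with 0, 0 and 0, against 90.5, 89.2 and 84.7 (difference −88.1, adjusted p = 8.12e-05). NEB, the gene of the muscle protein nebulin, had 0, 0 and 0, against 90.3, 92.2 and 80.8 (adjusted p = 0.000147). All 5 of these calls held without vehicle replicates 1 and 2.

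Near gene ends the largest rises were at C4orf51, CASQ1, SPATA9, ARID3B and ALDH2. ALDH2, the mitochondrial aldehyde dehydrogenase gene, had 89.9, 81.3 and 90.1 at 0.333 kb inside its end at 10 nM, against 0, 0 and 0 in vehicle (adjusted p = 0.000116), and its means were 61.03 at 0.01 nM, 79.4 at 0.03 nM and 87.5 at 0.06 nM. CASQ1, which encodes a calcium-storing muscle protein, had 91.3, 88.9 and 91.5, against 0, 0 and 0 (adjusted p = 0.000286). The largest falls near gene ends were at MYC, KIF16B, PGAP1, MELK and ADD3. KIF16B, a motor protein gene, had 0, 0 and 0 at 0.451 kb from its end, against 83.0, 83.0 and 75.9 (adjusted p = 0.00171). The PGAP1 fall was lost without 10 nM replicate 2 or 4 or vehicle replicate 1 or 4.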

How the data were processed

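Omni-ATAC-seq libraries from VCaP cells were analysed from the peak lists that the authors deposited, 1 list per library. GRCh38 is the build named by the submitters' processing notes, and the tools there are deepTools 3.5.1, MACS2 2.2.7.1, BWA 0.7.17 and Trimmomatic 0.39. Each deposited entry gives, per the file's columns, a score equal to 10 times the −log10 p cut to a whole number, a ratio (fold enrichment at the summit), the −log10 p and −log10 q of the summit, and the summit's offset in bp (other numeric column deposited by the authors). Peaks with several summits were divided at the midpoints between them.

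Each of the 6 lists was cut to 104726 entries by −log10 p. Windows of 501 bp were placed on their summits, strongest first, without overlap, giving 208579 regions. A rank gives the place of a peak within 1 library, not absolute signal. A value of 0 can hide signal below the authors' threshold or a deposited peak weaker than the entries kept. The 15 VCaP libraries were fitted together with limma 3.58.1 (R 4.3.3) as 5 group means, with trend and robust moderation, and gave two-sided p-values with Benjamini-Hochberg adjustment over the 88594 regions tested. The low-dose lists were ranked in the same way, so they share the estimate of the spread. A group at 0 in all its libraries adds no spread but still counts in the fit, which lowers the p-values of such regions. In the fit to the 6 libraries alone, 62.9% of the rises and 49.8% of the falls were called again. Summit pileups were solved from fold and −log10 p under a Poisson model, and 100% lay within 0.05 of a whole number. The background pileup is percentile 1 of the solved local background. The script was tested on simulated data. Regions belong to the nearest protein-coding gene body (RefSeq, GRCh38.p14) within 100 kb. The annotation gives no strand for genes, so "gene end" means either end.

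Alternatives changed the libraries, peaks, ranking, overlap, region filter, block and distances, 1 at a time, except that the summit pileup replaced ranks together with the filter for a peak in all 6 libraries. Some named regions were taken only from called regions without overlap between the groups that an overlap of 1 bp also called. These were the 6 largest changes each way and the 5 largest each way within 1 kb of a gene end. The region of smallest p for up to 3 genes of a list (10 for androgen-induced and 6 for androgen-repressed genes) had the same condition. Named without it were the printed promoters, the genes with most called regions (8) or the largest share (4) each way and 5 loci each way. KLK3, KLK2, TMPRSS2, FKBP5, ERG and MYC were always named. Not all of these are printed, and some items are not reported here. The comparison, gene lists and named genes were chosen with earlier results of these data known. The LNCaP libraries of the series were not used here.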

Additional observations from a re-analysis of the deposited data

How the results depend on the processing

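Counts are given in the order regions called, rises, falls, genes with 3 or more rises, genes with 3 or more falls, loci with 3 or more rises and loci with 3 or more falls, and were 13503, 9374, 4129, 691, 171, 133 and 19 as reported. Only values that moved by over 1.5 times are listed. In the fit to the 6 libraries alone, the regions called were 8574, the falls 2322, the genes 340 and 53 and the loci 35 and 9. With all peaks as deposited, genes with 3 or more falls were 76 and loci 235 and 6. With the 50000 strongest peaks of each list, regions called were 8491, rises 5452, genes 275 and 86, and loci 31 and 9. With peaks of −log10 q of at least 5, the counts were 3141, 2152, 989, 52, 12, 2 and 1. With an overlap of at least 250 bp, genes were 432 and 94 and loci 66 and 10. Loci of falls were 10 with ranks by fold enrichment, 31 with an overlap of at least 1 bp and 30 with peaks not split between summits, a setting chosen after the data were seen. With regions that had a peak in at least 1 of the 6 libraries, falls were 2434, genes 397 and 59 and loci 53 and 7. With regions that had a peak in all 6, the counts were 1490, 645, 845, 2, 5, 0 and 2, and by log2 summit pileup at those regions 3742, 1951, 1791, 41, 41, 5 and 5. Without vehicle replicates 1 and 2 they were 3394, 2925, 469, 75, 0, 5 and 0. With gaps of 10 kb between the regions of a locus, loci were 39 and 5, and with 50 kb 453 and 72. The share of rises among the calls was 69.4% as reported, 81.0% with all peaks as deposited, 86.2% without vehicle replicates 1 and 2, 43.3% where all 6 libraries had a peak and 52.1% by pileup there. No called region was called in the opposite direction in any setting.

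Leaving out each library in turn gave 9808 to 12340 regions called, 7064 to 8503 rises, 2436 to 3837 falls, 427 to 572 genes with 3 or more rises, 63 to 151 genes with 3 or more falls, 61 to 102 loci of rises and 7 to 14 loci of falls.

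For the replicate block, same-numbered 10 nM and vehicle libraries deviated together with r of 0.0576, 0.1385 and 0.1395 over 88594 regions, and each library correlated best with the one of its own number, which is a hint from the data and not from the design. Pairs of unlike number had r of −0.135 to 0.0236. The first same-numbered pair is under the limit of 0.1 set for a pairing, and the block stayed an alternative. Whether these libraries share more than a number was not tested. The block gave 11163 rises and 5691 falls, 285 genes with 3 or more falls, and 200 and 34 loci, with 9360 of the 9374 rises and 4128 of the 4129 falls among its calls.

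Single sites changed sign 5 times, none past the threshold. They are MYC at chr8:127735713-127736213 (3.66), NCAPD3 (22.7) and TMPRSS2 at chr21:41500815-41501315 (16.3) with an overlap of at least 250 bp, KLK2 at chr19:50880006-50880506 (−12.6) with ranks by fold, and TMPRSS2 at chr21:41506936-41507436 (4.48) with peaks not split. The cause was not tested. How many reads each library had is unknown, and a site at 0 in the shallow vehicle libraries may hold signal below the authors' threshold.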

Other observations

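Of the 691 genes with 3 or more rises, 315 had no fall, and of the 171 with 3 or more falls, 25 had no rise. Beside the genes named by the rule, KCTD1, picked after its values were seen, had 8 rises and 0 falls among 23 tested regions.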
